A study of Mus musculus with 4 samples.

Results

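Regulatory T cells of the mouse lung were taken as the barcodes with at least 500 unique molecular identifiers (UMIs, each standing for 1 captured RNA molecule), at most 20% mitochondrial UMIs, at least 1 UMI of Foxp3, at least 1 UMI of the T cell receptor chains Cd3e, Cd3d or Cd3g, and no UMI of Cd8a, Cd8b1, Cd79a or Csf1r. The last condition sets aside CD8 T cells, B cells and macrophages. The members were thus chosen by the measured UMIs of these genes. The gate held 187 cells of the 19427 kept lung barcodes and of the 29563 kept barcodes of all 4 libraries. Of these, 46 came from the TNF- lung and 141 from the TNF+ lung. The TNF+ group is transgenic for human TNF, a model of inflammatory arthritis with lung vascular disease, and the TNF- group is made of littermates that lack the transgene. All mice were 4 months old, and the other libraries of the series came from synovium. Lungs of 3 to 5 mice per genotype were pooled, dissociated with enzymes, sorted for viable cells and captured as 1 droplet 3' library per genotype, so no difference between the genotypes has a replicate check and no p-value can be given.

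Regulatory T cells are the CD4 T cells that restrain other lymphocytes. Their fate is set by the transcription factor FOXP3, and they act through the receptor CTLA-4, through consumption of interleukin-2 by a high-affinity receptor that includes CD25 (Il2ra), and through cytokines such as interleukin-10. They pass from a resting state, which recirculates through lymph nodes with receptors such as CCR7, to an effector state that settles in tissue. They carry TNF receptor 2 (Tnfrsf1b) and other receptors of the TNF family, whose signals reach the NF-kappaB transcription factors.

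The total depth of the kept barcodes was 95523525 UMIs in the TNF- lung and 155612951 in the TNF+ lung, and the regulatory T cells gave 432742 and 1208317 of these. A regulatory T cell held a median of 8925.5 UMIs in the TNF- and 7475 in the TNF+ library. The lung libraries shared 21 barcodes, and 2 of the members had a barcode that also occurred in the other lung library. The myeloid gate (a Csf1r UMI and none of the Cd3 genes or Cd79a) held 1092 TNF- and 4533 TNF+ barcodes, and the endothelial gate (a Cdh5 UMI and none of the T cell, B cell or macrophage genes) 2263 and 235, so the makeup of the whole suspension differed between the libraries.

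Foxp3 chose the members, and its values only describe them. It was present with 1 UMI in 19 of 46 TNF- and 51 of 141 TNF+ cells, the members just inside the threshold, and reached 10 and 13 UMIs in the highest cell. Just outside, 622 TNF- and 836 TNF+ T cells met every other condition with 0 Foxp3 UMIs. B cells, which should lack the gene, had a Foxp3 UMI in 0.261% of 1148 TNF- and 0.204% of 982 TNF+ cells, at median depths of 7465.5 and 7839 UMIs. T cells with a CD8 UMI had one in 1.88% of 372 and 3.77% of 292 cells.

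The label was checked against 4 further markers, Ctla4, Icos, Il2ra and Ikzf2 (the transcription factor Helios). At least 2 of the 4 were found in 15 of the 19 TNF- and 46 of the 51 TNF+ members with a single Foxp3 UMI. Among the members with 2 or more Foxp3 UMIs, this held for 25 of 27 and 90 of 90. CD4 T cells without Foxp3 (a Cd4 UMI, the other conditions the same) were the comparison population, with 284 TNF- and 417 TNF+ cells, and held at least 2 of the 4 in 30.3% and 50.6% of cells. When every cell was thinned to 3000 UMIs, Ctla4 was found in 71.1% of TNF- and 86.3% of TNF+ regulatory T cells, in 15.9% and 25.4% of CD4 T cells without Foxp3, and in 1.07% and 2.73% of B cells. Without thinning, Ctla4, Ikzf2 and Il2ra were found in larger shares of members than of CD4 T cells without Foxp3 in both libraries. Icos was less clear in the 19 TNF- members with a single Foxp3 UMI. It was found in 63.2% of them against 52.1% of those CD4 T cells, but at 171 against 198 UMIs per 1000000 UMIs. TNF- members with 2 or more Foxp3 UMIs had Icos at 520, and TNF+ members at 531 (single) and 443 (2 or more) against 302. The share with Ctla4 was far above that seen in B cells.

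Regulatory T cells made up a larger share of the TNF+ than of the TNF- lung. They were 0.551% of kept TNF- barcodes (95% interval 0.404 to 0.735) and 1.27% of kept TNF+ barcodes (1.07 to 1.498). Of T cells they were 4.42% (46 of 1040, 3.26 to 5.86) and 11.1% (141 of 1269, 9.43 to 13.0), a difference of 6.69 percentage points (4.53 to 8.83). Of CD4-lineage T cells, those with a Foxp3 or Cd4 UMI and no CD8 UMI, they were 13.9% (46 of 330) and 25.3% (141 of 558), a difference of 11.3 points (5.94 to 16.4). Intervals throughout cover counting error only and not the spread between animals or captures. Those of summed UMIs, given below, also leave out the spread between cells. The CD4 T cells without Foxp3 were 3.40% of kept TNF- and 3.76% of kept TNF+ barcodes, and their intervals overlapped. T cells as a whole were 12.5% and 11.4% of kept barcodes. The higher share thus held with each of the 3 denominators, including those that leave out the myeloid and endothelial cells.

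**Figure D1:**
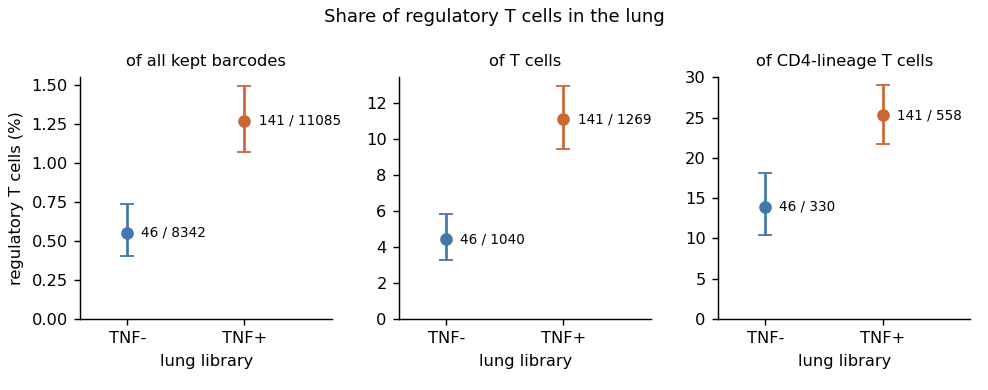
Regulatory T cells as a percentage of kept barcodes, of T cells and of CD4-lineage T cells (vertical axes, each from 0) in the TNF- and TNF+ lung libraries (horizontal axes). Points are the shares, bars their exact binomial 95% intervals, and the numbers beside them the counts. In each panel the TNF+ interval lies above the TNF- interval, with 46 TNF- and 141 TNF+ cells.

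The share was also higher at equal depth. With every barcode thinned to 3000 UMIs before the gate was applied, regulatory T cells were 2.99% of TNF- T cells (29 of 971) and 8.71% of TNF+ T cells (113 of 1297), and 14.5% and 27.3% of CD4-lineage cells. The gate removed cells unevenly: 23.3% of TNF- and 29.1% of TNF+ Foxp3-positive CD3 cells without CD8 were lost to a Cd79a or Csf1r UMI. Among CD4 T cells without Foxp3, 14.7% and 37.0% were lost in the same way. Without that exclusion the share of T cells was 4.58% and 8.26%.

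Regulatory T cells were compared with the other CD4 T cells of the same library. Levels are given as UMIs per 1000000 UMIs of the summed cells (CPM), and differences as log2 ratios with a conditional binomial 95% interval. Of 9791 genes with at least 20 UMIs over both populations in each library, 124 (1.27%) were at least 2-fold higher in regulatory T cells in both libraries and 123 (1.26%) at least 2-fold lower. Of 18 measured genes of the regulatory T cell identity list other than Foxp3, 14 were at least 2-fold higher in both, and the list median was 1.91 on the log2 scale in the TNF- and 2.03 in the TNF+ library, against 0.02 and 0.00 over all genes tested. The identity list is made of genes known from such cells and describes the label.

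Ikzf2 stood at 1918 (TNF-) and 2933 (TNF+) CPM in regulatory T cells, against 173 and 278 CPM in CD4 T cells without Foxp3. Ctla4 stood at 862 and 1507 CPM against 123 and 208. Il2ra stood at 240 and 209 CPM against 13.2 and 31.5. The genotypes overlapped for Il2ra within the regulatory T cells, while each of the 3 genes was far above the other CD4 T cells in both libraries. Receptors of the TNF family were among the genes most above CD4 T cells: Tnfrsf4 (OX40) by 3.56 and 3.34 on the log2 scale, Tnfrsf9 (4-1BB) by 2.89 and 3.42, and Tnfrsf18 (GITR) by 2.20 and 2.003, in the TNF- and TNF+ library in that order. Klrg1, an inhibitory lectin-like receptor of terminally differentiated lymphocytes, was at 71.6 and 111 CPM against 1.35 and 5.41 CPM, a log2 difference of 5.73 (4.23 to 7.69) and 4.36 (3.70 to 5.08). Itgae, the integrin chain CD103 that binds E-cadherin on epithelium, was higher by 2.88 and 2.33, and Izumo1r (folate receptor 4) by 1.92 and 2.08.

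Less familiar genes of the same kind were Neb, which encodes the sarcomere protein nebulin, Coro2a, Glrx and Myo1e. Neb was found at 57.8 (TNF-) and 100.1 (TNF+) CPM in regulatory T cells, in 10 of 46 and 57 of 141 cells, and at 12.8 and 5.90 CPM in CD4 T cells without Foxp3. Coro2a, a coronin, was higher by 2.35 and 1.78, Glrx (glutaredoxin) by 2.42 and 1.80, and the myosin Myo1e by 2.32 and 1.98. At the other end, Cd40lg, the helper ligand that activates B cells, was at 23.1 and 24.0 CPM in regulatory T cells and at 95.5 and 214 CPM in the other CD4 T cells. Il2, the cytokine that regulatory T cells consume and do not make, had 0 UMIs in the regulatory T cells of both libraries, while the other CD4 T cells had 6.75 and 24.1 CPM. A count of 0 allows up to 3 UMIs per library, or 6.93 CPM for the TNF- and 2.48 CPM for the TNF+ members, so at this depth a difference was detectable in the TNF+ library but not in the TNF- library.

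TNF+ regulatory T cells had less of the resting programme and more of several effector, suppressive and TNF receptor genes than TNF- regulatory T cells. Of 8164 genes with at least 20 UMIs over both, 673 (8.24%) were at least 2-fold higher in the TNF+ library and 472 (5.78%) at least 2-fold lower, with a median over all genes of 0.04 on the log2 scale. Of these, 284 of the 673 and 220 of the 472 had at least 2 times as many UMIs per regulatory T cell as the lower of the B cell and myeloid gates of that library. Of all 8164 genes tested, 1836 met this rule in the library where they were higher.

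RNA of other cell types moved with genotype, and the values are these. Markers of macrophages or monocytes (16 genes) gave 2.83 UMIs per TNF- and 19.8 per TNF+ regulatory T cell, with 9 and 15 of the genes present; Csf1r was at 0 in both by the gate, and C1qa, C1qb, C1qc, Itgam, Marco and Cd14 at 0 in the TNF- cells. B cells of the same libraries held 8.73 and 15.7 UMIs of the macrophage list. Markers of B or plasma cells (10 genes, 7 and 9 present, Cd79a at 0 by the gate) gave 4.37 and 14.04 UMIs per cell, those of endothelium (8 genes, all present in both) 12.1 and 2.55, and those of epithelium (7 genes, 6 and 7 present) 6.24 and 79.7. One TNF+ member alone held 10108 epithelial UMIs, 90.0% of that sum, and the medians per cell were 6 and 7. Innate lymphoid genes (7, of which 4 were present in both, with Il5, Il13 and Arg1 at 0) gave 6.07 and 5.61. The part of this RNA in the results was not tested. Leaving out the members with at least 50 UMIs of any one such list (2 TNF- and 7 TNF+ cells, an alternative chosen after the data were seen) left 618 genes higher and 389 lower, and the list counts that differ without these cells are given below.

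Of the 17 genes of the resting and lymphoid-recirculating list, which covers homing to lymph nodes and its transcription factors, 14 were at least 2-fold lower in TNF+ regulatory T cells and none at least 2-fold higher, against the background of 5.78%. The list median was -1.41 on the log2 scale, and without the mixed members 13 genes were lower with a median of -1.55. Foxp1, Ly6c1 and Bach2 were short of 2-fold with at least 2 Foxp3 UMIs, and these and Bcl2 with a Cd4 UMI required. Ly6c1 is also on the endothelium list, whose 7 tested genes were all at least 2-fold lower (median -3.94). The part of RNA from other cell types in these values was not tested. Ccr7, the chemokine receptor that guides T cells into lymph nodes, stood at 85.5 and 18.2 CPM (-2.23, -3.06 to -1.43). S1pr1, the sphingosine-1-phosphate receptor that lets T cells leave them, stood at 287 and 90.2 CPM (-1.67, -2.05 to -1.28). For both receptors the TNF- level was at least 3 times the TNF+ level and the count intervals did not overlap.

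The transcription factors of the resting list were lower as well. Satb1, a chromatin organiser of developing and resting T cells (GRCm38, chromosome 17, 51736187 to 51833290), stood at 612 and 108 CPM in the TNF- and TNF+ members (-2.51, -2.82 to -2.20). Tcf7 (TCF-1) stood at 314 and 90.2 CPM (-1.80, -2.18 to -1.43), and Klf2, which sustains S1pr1, at 705 and 266 CPM (-1.41, -1.64 to -1.18). Lef1 was lower by 1.16, Bach2 by 1.38 and Klf3 by 1.56 on the log2 scale. Dapl1 had 33 UMIs in 5 TNF- cells and 1 UMI in the TNF+ cells, a log2 difference of -6.53 (-11.87 to -3.95). Il7r, the interleukin-7 receptor, was the 1 gene of the list on the other side, at 300.4 and 475 CPM (0.66, 0.38 to 0.95). After thinning to 3000 UMIs, Satb1 was found in 44.4% and 12.9% of cells, Tcf7 in 51.1% and 10.8%, and S1pr1 in 62.2% and 21.6%. B cells had Satb1 in 53.8% and 51.0% and S1pr1 in 29.1% and 24.7%, so the last value of S1pr1 in TNF+ regulatory T cells was no higher than in B cells.

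**Figure D2:**
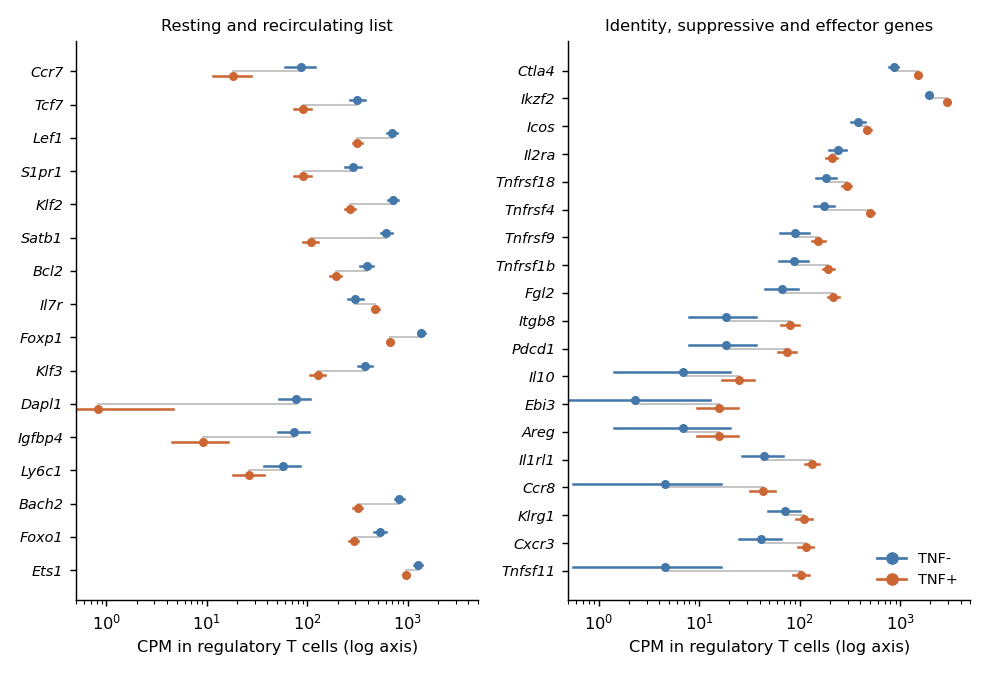
CPM in summed regulatory T cells (horizontal log axes) of 16 genes of the resting list (left) and of 19 identity, suppressive, effector and TNF family genes (right), in the TNF- (blue, 46 cells) and TNF+ (orange, 141 cells) libraries. Points are CPM and bars exact Poisson 95% intervals, cut at the left edge of the axis. Of the left genes all but Il7r lie lower in TNF+, and on the right Tnfrsf4 goes from 176 to 502 CPM while the intervals of Il2ra overlap.

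The same genes also differed in the other CD4 T cells, whose median over the resting list was -0.97. In those cells 670 of 11894 genes (5.63%) were at least 2-fold higher and 1238 (10.4%) at least 2-fold lower in the TNF+ library. Counting intervals of the difference did not overlap between regulatory and other CD4 T cells for Satb1 (-2.51 against -1.23), Tcf7 (-1.80 against -0.52) and S1pr1 (-1.67 against -0.65). Whether the difference between genotypes differs between the populations was not tested, as there is 1 library per genotype.

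Identity genes were at or above their TNF- level in most cases. Of 19 tested, 3 were at least 2-fold higher in TNF+ regulatory T cells (Tnfrsf4, Cd83 and Socs2, background 8.24%) and none at least 2-fold lower. The 19 and their median include Foxp3, which chose the members and only describes them. The median was 0.38 in regulatory and 0.69 in other CD4 T cells. Tnfrsf4 (chromosome 4, 156013843 to 156016612), a costimulatory receptor, had 76 UMIs in 18 of 46 TNF- cells and 607 UMIs in 101 of 141 TNF+ cells, which is 176 and 502 CPM and a log2 difference of 1.52 (1.17 to 1.88). In the TNF- cells 36.8% of the Tnfrsf4 UMIs came from 1 cell. After thinning it was found in 24.4% and 56.8% of cells, and in 0.0890% and 0.839% of B cells. Ctla4 was higher by 0.81 (0.64 to 0.97) and Ikzf2 by 0.61 (0.50 to 0.72). Of the 4 genes below 0, Gpr83 stood at -0.74, Lrrc32 at -0.41, Il2ra at -0.20 and Ikzf4 at -0.07, each with an interval that held 0. For Il2ra the interval was -0.53 to 0.14, whereas in the other CD4 T cells it was higher by 1.26 (0.73 to 1.82).

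Of 16 tested suppressive mediators, 7 were at least 2-fold higher (Il10, Ebi3, Fgl2, Areg, Itgb8, Pdcd1 and Il1r2; background 8.24%) and none lower (5.78%), with a median of 0.80 in regulatory and 0.82 in other CD4 T cells. Fgl2, a secreted fibrinogen-like inhibitor, stood at 67.0 CPM (29 UMIs in 9 TNF- cells) and 217 CPM (262 UMIs in 78 TNF+ cells), a log2 difference of 1.69 (1.14 to 2.30). Itgb8, the integrin chain that activates latent TGF-beta, stood at 18.5 and 81.1 CPM (2.13, 1.10 to 3.38), and the checkpoint receptor Pdcd1 at 18.5 and 75.3 CPM (2.03, 0.99 to 3.28). Il10 rested on 3 UMIs in 3 TNF- and 30 UMIs in 15 TNF+ cells (1.84, 0.16 to 4.20). Areg, a growth factor of tissue repair, rested on 3 and 19 UMIs, and its interval of -0.58 to 3.58 held 0. The transcript of the TGF-beta1 cytokine, Tgfb1, stood at 210 and 241 CPM with overlapping intervals. When at least 2 Foxp3 UMIs were required the median of the list was 0.13, so its summary depended on the gate.

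Of 22 genes of the effector and tissue programme, 6 were at least 2-fold higher (Irf4, Il1rl1, Nfil3, Ccr8, Bhlhe40 and Penk, background 8.24%). Cxcr6 was at least 2-fold lower. The list median was 0.62 in regulatory and 0.74 in other CD4 T cells, so a higher median was not particular to regulatory T cells. Irf4 (1.02, -0.02 to 2.23) was at 0.42 with at least 2 Foxp3 UMIs, 0.53 with a Cd4 UMI required and 0.98 under median-of-ratios scaling. Penk was found in 1 TNF- and 6 TNF+ cells, with 51.0% of its TNF+ UMIs in 1 cell, and Nfil3 was short of 2-fold without the exclusion by Cd79a and Csf1r. Il1rl1, the interleukin-33 receptor ST2 (chromosome 1, 40429570 to 40465415), had 19 UMIs in 8 TNF- cells and 160 UMIs in 46 TNF+ cells, or 43.9 and 132 CPM (1.59, 0.90 to 2.36). With a Cd4 UMI required as well this difference was 0.71, and without the exclusion by Cd79a and Csf1r 0.82, both short of 2-fold. Ccr8, a chemokine receptor of tissue regulatory T cells, had 2 UMIs in 2 cells and 52 UMIs in 22 cells (3.22, 1.29 to 6.30). Klrg1 was higher by 0.63 (0.06 to 1.24) and Itgae stood at 132 and 127 CPM. In the TNF+ library Il1rl1 and Klrg1 were each found in 46 of the 141 cells and together in 24, and in the TNF- library in 8 and 6 of 46 cells and together in 5. Gata3, a transcription factor they share with type 2 helper cells, was found in 34 of 46 TNF- and 113 of 141 TNF+ members, and in 44 of the 46 TNF+ cells with Il1rl1.

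Several receptors of the TNF family and genes of the NF-kappaB pathway were higher in TNF+ regulatory T cells. Of 32 genes, 8 were at least 2-fold higher (Tnfrsf1a, Tnfrsf1b, Tnfrsf4, Traf3, Relb, Bcl3, Bcl2a1b and Ltb; background 8.24%) and none at least 2-fold lower. A log2 difference above 0 was found for 30 of them, against 52.7% of all genes tested, but many were small, such as Tnip1 (0.06), Tnfaip3 (0.11) and Cflar (0.14). The median was 0.53 in regulatory and 0.51 in other CD4 T cells. Tnfrsf1b, TNF receptor 2, had 38 UMIs in 19 TNF- cells and 233 UMIs in 89 TNF+ cells, or 87.8 and 193 CPM (1.13, 0.64 to 1.67). With each cell weighted equally the difference was 0.97, just short of 2-fold. Tnfrsf1a, TNF receptor 1, rested on 3 and 17 UMIs, and its interval of -0.77 to 3.43 held 0. Relb, a subunit of the alternative NF-kappaB pathway, stood at 39.3 and 102 CPM (1.37, 0.64 to 2.20), and Bcl3, an atypical inhibitor-like partner of NF-kappaB, at 18.5 and 62.1 CPM (1.747, 0.70 to 3.01). Ltb, the membrane ligand lymphotoxin beta, stood at 499 and 1092 CPM (1.13, 0.92 to 1.34) and was found in 40 of 46 and 137 of 141 cells. Traf3, an adaptor that restrains the alternative pathway, stood at 189 and 416 CPM (1.14, 0.80 to 1.49). With at least 2 Foxp3 UMIs the differences of Ltb and Traf3 were 0.85 and 0.62, and with a Cd4 UMI required 0.93 and 0.84, and that of Traf3 was 0.99 without the exclusion by Cd79a and Csf1r. Both genes are also used by other cells: B cells and myeloid cells of the TNF+ library held 7.24 and 1.39 UMIs of Ltb per cell, against 9.36 per regulatory T cell, and 3.19 and 4.43 UMIs of Traf3 per cell, against 3.57. The part of free RNA in these values was not tested.

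The upstream regions of Ltb and Traf3 are shown because both genes belong to this list, were more than 2-fold higher, and hold the letters of an NF-kappaB motif. In the RefSeq table of promoters for GRCm38.p6, 28 of the 32 genes were found, and 7 of them (25.0%) held the motif (3 G, 2 free bases, 3 T and 2 C in that order) on either strand in the 250 bases before a start, against 1.65% of all 27025 genes. The list was drawn from known members of the pathway, many of which are known targets of it, so the share describes the choice of genes. The rest of the 7, Nfkb2, Nfkbia, Rel, Tnfaip3 and Tnfrsf9, were short of 2-fold. Of the 8 genes past 2-fold only Ltb and Traf3 were among the 7, and not every gene of the list was found. A link between motif and change was not tested. Capitals mark the motif, and in Ltb also a GTAAACA of the FOXO kind that does not overlap it. The Ltb stretch is chr17:35194257-35194506 and that of Traf3 chr12:111166120-111166369, both on the plus strand and 5′ to 3′.
Ltb: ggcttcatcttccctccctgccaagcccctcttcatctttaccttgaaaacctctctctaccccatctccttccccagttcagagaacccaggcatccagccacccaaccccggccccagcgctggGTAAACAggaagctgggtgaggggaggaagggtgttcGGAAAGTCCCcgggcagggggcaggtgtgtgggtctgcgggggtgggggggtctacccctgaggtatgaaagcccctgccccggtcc
Traf3: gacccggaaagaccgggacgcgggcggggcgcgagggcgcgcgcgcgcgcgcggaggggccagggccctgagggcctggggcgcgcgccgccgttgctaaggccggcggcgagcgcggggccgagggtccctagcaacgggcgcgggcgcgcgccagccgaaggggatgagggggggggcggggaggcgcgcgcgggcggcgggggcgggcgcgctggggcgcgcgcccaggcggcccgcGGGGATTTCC
In Ltb the NF-kappaB letters lie on the opposite strand, 87 to 78 bases before the RefSeq start, and in Traf3 on the gene's own strand in the last 10 bases before it. In the GENCODE annotation used for gene positions, Ltb begins at 35194439, inside the stretch shown. The distances in Ltb thus hold for the RefSeq start only. A match is a description of the sequence and says nothing of binding. In the resting list 13 of 17 genes were found, of which 1 held GTAAACA (3.54% of all genes) and 2 held the CACCC box CCACACCC (3.68% of all genes).

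Without the mixed members, Tnfsf11 ranked after Ccl5 among the genes higher in TNF+ with at least 50 UMIs and at least 2 times the lower of the B cell and myeloid levels. It encodes RANKL, the ligand that drives osteoclast formation and lymphoid tissue organisation (chromosome 14, 78277445 to 78308043). It had 2 UMIs in 2 of 46 TNF- cells and 125 UMIs in 53 of 141 TNF+ cells, which is 4.62 CPM (0.560 to 16.7) and 103 CPM (86.1 to 123) and a log2 difference of 4.48 (2.60 to 7.55). No cell held more than 7.20% of the TNF+ UMIs. B cells of the TNF+ library had 0.00102 and myeloid cells 0.00860 UMIs of it per cell, against 0.887 per regulatory T cell. In the other CD4 T cells it stood at 28.0 and 81.4 CPM (1.54, 1.19 to 1.91). Against those cells the members were lower by 2.60 on the log2 scale in the TNF- library and higher by 0.35 (0.04 to 0.65) in the TNF+ library. The TNF- value rests on only 2 UMIs in the members. Ccl5, a chemokine of cytotoxic and memory T cells, came first, with 0 UMIs in the TNF- cells and 429 UMIs in 57 TNF+ cells, at least 51.2-fold higher against a floor of 3 UMIs in the library. It is abundant in CD8 T cells, at 47.1 and 40.4 UMIs per cell, and TNF+ regulatory T cells held 3.04 per cell, B cells 0.231 and other CD4 T cells 4.64. Gzmk, the other marker of CD8 T cells outside the gate, was at 0 in both libraries. Natural killer (NK) cell markers (9 genes, 5 and 9 present) also differed, at 0.196 and 1.16 UMIs per regulatory T cell, with 56.4% of the latter in 1 cell. Of these, Nkg7 was found in 0 TNF- and 23 TNF+ cells and Gzma in 1 and 5. Trdc, a gamma delta T cell receptor gene, was found in 0 and 9 cells. One TNF+ cell held 19.1% of the Ccl5 UMIs, and the part of CD8 T, NK or gamma delta T cells in these values was not tested.

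Among the other genes that the rule put highest, Sftpc, Sftpa1, Chil1, Lyz1, Wfdc2, Lcn2 and Sftpd owed 84.7% to 93.3% of their TNF+ UMIs to 1 cell, Ank3 and Sfta3-ps 62.5% and 65.1%, and Cxcl13 48.8%. At the low end, Ptprb, Bmp6 and Plcb1 owed 54.9% to 79.7% of their TNF- UMIs to 1 cell. Without the mixed members, Klf12 (82.3 against 12.2 CPM), Camk2n1 (87.8 against 14.7), Zdhhc2 (83.2 against 14.7), Lta4h, an enzyme of leukotriene B4 synthesis (89.6 against 19.6), and Ctla2a, a cysteine protease inhibitor (279 against 66.0), were among the 12 highest, each found in at least 35 TNF+ cells. Their TNF- values rested on 5, 6, 6, 8 and 27 UMIs in 2, 3, 5, 8 and 12 cells, in that order. The log2 difference of Klf12 was 2.75 (1.47 to 4.41) and that of Ctla2a 2.08 (1.51 to 2.70). In the other CD4 T cells, mixed cells left out likewise, the genes were higher by 0.45, 1.22, 0.81, 0.65 and 0.99. Satb1, Ccr7 and the kinase gene Txk (52.1 against 213 CPM) were among the 12 lowest.

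Homing receptors were mixed, with 24 tested and a median of -0.01. At least 2-fold higher were 4 of them (Ccr4, Ccr6, Ccr8 and Cxcr3, background 8.24%). At least 2-fold lower were 6 (among them Ccr7, Ccr9, Cxcr6 and S1pr1, background 5.78%). With a Cd4 UMI required Ccr4, Ccr6 and Cxcr6 were short of 2-fold, as was Ccr6 with at least 2 Foxp3 UMIs. With each cell weighted equally Ccr9 was short of it. Cxcr3, a receptor for interferon-induced chemokines, had 18 UMIs in 9 TNF- cells and 139 UMIs in 50 TNF+ cells (1.47, 0.75 to 2.26), close to the 1.33 of the other CD4 T cells. Cxcr6, a receptor of tissue-resident lymphocytes, went the other way: it stood at 55.5 and 27.3 CPM in regulatory T cells (-1.02, -1.82 to -0.20) and at 86.7 and 277 CPM in the other CD4 T cells (1.68, 1.48 to 1.88). In the TNF- regulatory T cells 41.7% of its 24 UMIs came from 1 cell, the difference was -0.55 with each cell weighted equally, and the thinned shares were 6.67% and 6.47%. In the TNF+ library 38.9% of the other CD4 T cells held Cxcr6 at that depth. Whether the genotype difference of Cxcr6 differs between the populations was not tested.

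**Figure D3:**
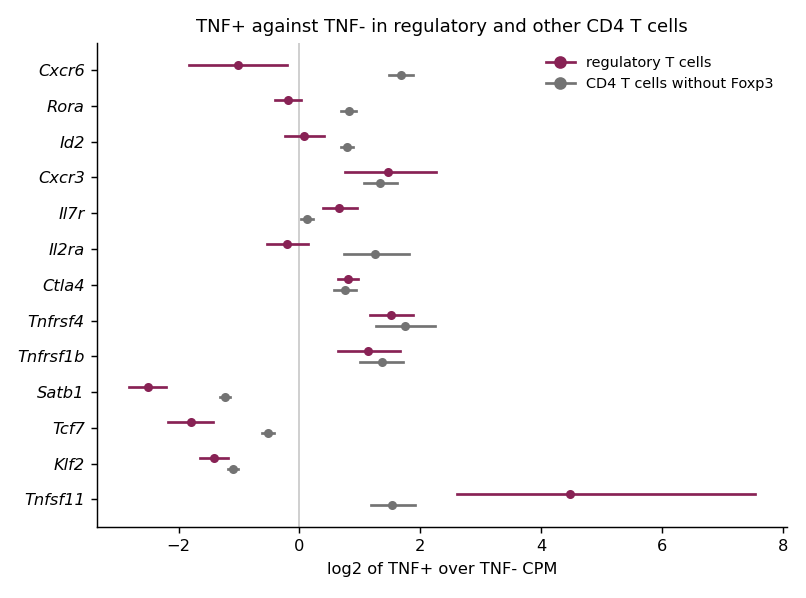
Log2 ratio of TNF+ over TNF- CPM (horizontal axis) of 13 genes in regulatory T cells (purple) and in CD4 T cells without Foxp3 (grey), with conditional binomial 95% intervals as bars. Cxcr6 lies at -1.02 in regulatory and 1.68 in other CD4 T cells, Tnfrsf4 at 1.52 and 1.74, and Tnfsf11 at 4.48 and 1.54.

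Helper-like factors and cytokines had 11 of 21 members tested. Tbx21 (T-bet) and Ifng were at least 2-fold higher (background 8.24%), none was lower, and the median was 0.11. Without the mixed members 1 gene was at least 2-fold lower. With each cell weighted equally Tbx21 was short of 2-fold. Tbx21 had 9 UMIs in 2 TNF- cells, 88.9% of them in 1 cell, and 77 UMIs in 24 TNF+ cells, 16 of which also held Cxcr3. Ifng rested on 3 and 26 UMIs, and its interval of -0.07 to 4.00 held 0. Il5, Il13 and Il21 had 0 UMIs in the regulatory T cells of both libraries. In the IL-2 receptor list of 16 genes, Socs2 and Cish were at least 2-fold higher (background 8.24%) and Bcl2 and Pim2 at least 2-fold lower (5.78%). Its median was 0.01. With a Cd4 UMI required Cish, Bcl2 and Pim2 were short of 2-fold, and without the exclusion by Cd79a and Csf1r Socs2 and Bcl2 were. Of 21 interferon-stimulated genes, Isg15, Irf7, Stat2, Rtp4 and Ifi27l2a were at least 2-fold lower with a list median of -0.18, and 60.4% of the TNF- UMIs of Isg15 came from 1 cell. The background of lower genes was 5.78%. With at least 2 Foxp3 UMIs the list median was 0.29, and Isg15, Stat2 and Rtp4 were short of 2-fold there and with a Cd4 UMI required. Of 9 tested proliferation genes Top2a and Stmn1 were at least 2-fold lower with a median of -0.68, and 43.8% and 64.6% of their TNF- UMIs came from 1 cell each. No gene of the T cell receptor list (16 tested, median -0.05) or of the immediate-early list (18 tested, median 0.22) passed 2-fold. The T cell receptor list includes Cd3 genes that chose the members, so the values of those genes only describe them. In the complement list, the subject of the study, C3, C1qa, C1qb and C1qc were at least 2-fold higher of 7 tested (background 8.24%, median 2.39). With no filter on UMIs the list median was 0.00. There a gene with too few UMIs to give a fold was entered as 0, so that median does not measure equal levels. C1qa had 0.660 UMIs per TNF+ regulatory T cell, 0.436 per B cell, 0.580 per other CD4 T cell and 16.0 per myeloid cell, and C3 had 0.475, 0.311, 0.436 and 10.2, so the levels in regulatory T cells were near those of the other lymphocytes. The part of free RNA in these values was not tested.

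The members varied in which of these genes were detected. After thinning to 3000 UMIs, each of 45 TNF- and 139 TNF+ cells was asked for a UMI of 5 resting genes (Ccr7, S1pr1, Lef1, Tcf7, Satb1) and of 8 effector genes (Klrg1, Il1rl1, Tnfrsf9, Ccr8, Itgae, Areg, Cxcr6, Prdm1). Resting genes alone were found in 53.3% of TNF- cells (37.9 to 68.3) and 18.7% of TNF+ cells (12.6 to 26.2). Effector genes alone were found in 8.89% (2.48 to 21.2) and 23.0% (16.3 to 30.9), both kinds in 37.8% and 49.6%, and both were missing in 8.63% of TNF+ cells and in 0 of 45 TNF- cells, where up to 6.67% could go undetected. A single UMI was enough for a call, the genes were chosen with their genotype differences known, and the medians per cell were 4 and 1 UMIs of the resting and 0 and 1 of the effector genes, so these shares describe detection and not cell types. B cells, some of whose own genes are on the resting side, held a resting gene in 80.2% of TNF- and 70.8% of TNF+ cells and an effector gene in 3.11% and 2.94%. At the same depth, CD4 T cells without Foxp3 held an effector gene in 21.6% of TNF- and 48.3% of TNF+ cells. They held a resting gene in 266 of 283 TNF- and 340 of 406 TNF+ cells. A larger TNF+ share with an effector gene was thus not particular to regulatory T cells. Whether the shift differs between the populations was not tested.

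**Figure D4:**
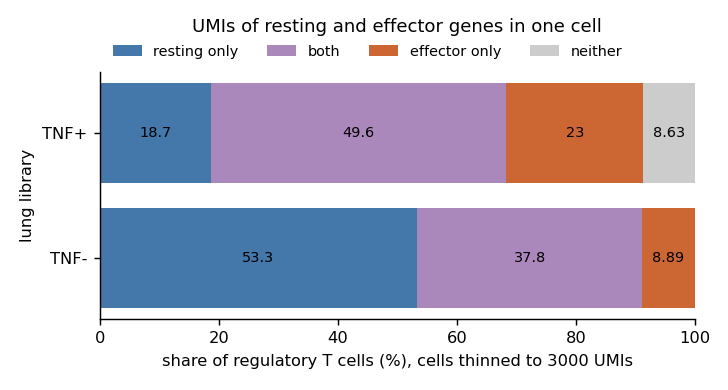
Share of regulatory T cells (horizontal axis, percent) with UMIs of resting genes, of effector genes, of both or of neither, in the TNF- (45 cells) and TNF+ (139 cells) libraries, each cell thinned to 3000 UMIs. The resting-only part is 53.3% of TNF- and 18.7% of TNF+ cells.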

How the data were processed

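Lung and synovial suspensions were captured as 1 library per genotype and tissue. The values deposited by the authors are raw UMI counts for each gene and barcode, made with Cell Ranger 7.0.1 on build mm10 (GRCm38), per the submitters' processing notes. That version counts intronic reads by default. No file assigns cells to types. Depth per cell and per library is given in the report. Gene positions came from GENCODE vM21 of the same build.

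UMIs were summed over the members of each library with numpy 2.4.6 and scipy 1.17.1 (python 3.11.15) and divided by the summed total to give CPM. CPM carries an exact Poisson, a share an exact binomial (Clopper-Pearson), a difference of shares a Newcombe and a log2 ratio a conditional binomial interval, all at 95%. A UMI count of 0 was set to a floor of 3 UMIs per library in a ratio, which is then a bound. No test was run, since each group is 1 library, and 2-fold served as the rule of size. A gene needed 20 UMIs over both sums. Thinning drew 3000 UMIs per cell and left out 1 TNF- and 2 TNF+ members below that depth. Doublets were not removed, and Scrublet scores (scanpy 1.11.5) served as an alternative that marked 2 members per library. The functions were tested on simulated data. Alternatives were other depth, gene number and mitochondrial limits, at least 2 Foxp3 UMIs, a required Cd4 UMI, no exclusion by Cd79a or Csf1r, median-of-ratios scaling, equal weight per cell, other UMI filters and thinning depths and, chosen after the data were seen, leaving out members with at least 50 UMIs of one list of other-cell markers. Motif searches covered both strands.

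The members, gene lists and gates were chosen with earlier results of these data known. Any list member could be named. Other genes were the 12 highest and 12 lowest by TNF+ over TNF- with at least 50 UMIs and 2 times the lower B cell or myeloid level, and the 15 highest and 10 lowest against CD4 T cells without Foxp3 in both libraries. Mitochondrial, ribosomal protein and immunoglobulin genes were not named, and a few list genes are not reported here.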

Additional observations from a re-analysis of the deposited data

How the results depend on the processing

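No paired analysis was possible because each group is 1 library. The share of regulatory T cells was higher in the TNF+ lung under every alternative run for it, and the resting list stayed lower (median -1.62 to -1.27) and the TNF receptor and NF-kappaB list higher (0.34 to 0.60). Of kept barcodes the TNF- and TNF+ shares were 0.324% and 0.812% with at least 2 Foxp3 UMIs, 0.360% and 0.767% with a Cd4 UMI required (0.407 points apart), and 1.80% in TNF+ without exclusion by Cd79a or Csf1r (1.08 points apart). Of T cells they were 2.60% and 7.09% (4.50 points apart), 2.88% and 6.70% (3.81 points apart), and 8.26% in TNF+ (3.68 points apart) in the same order, and 2.99% and 8.71% after thinning. The suppressive list had a median of 0.13 with at least 2 Foxp3 UMIs and 0.15 with a Cd4 UMI required, the interferon list 0.29 with at least 2 Foxp3 UMIs, and the T cell receptor list -0.13 without the exclusion. With at least 50 UMIs per gene, 256 genes were higher and 159 lower in TNF+ cells and 60 higher and 53 lower than in CD4 T cells, and with no filter 1180 were higher and 1974 lower in TNF+ cells and 411 higher than in CD4 T cells. Genes lower than in CD4 T cells numbered 204, 194 and 270 with 2 Foxp3 UMIs, with a Cd4 UMI and without the exclusion. The cause of these shifts was not tested, apart from the UMI filter, which changes how many genes enter. Of 58 list genes past 2-fold, 39 of the 50 still measured stayed past it with 2 Foxp3 UMIs, 35 of 51 with a Cd4 UMI, 48 of 58 without the exclusion and 56 of 57 without the mixed members, an alternative chosen after the data were seen. The share of cells with Prdm1, thinned to 1000 UMIs, differed by -0.848 points (TNF+ minus TNF-), the reverse of the 14.1 points at 3000 UMIs. With 46 and 141 cells, genes under about 20 UMIs were not compared.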

Other observations

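In the synovial libraries the same gate passed 6 of 124 TNF- T cells, 4.84% (1.80 to 10.2), and 9 of 89 TNF+ T cells, 10.1% (4.73 to 18.3), with overlapping intervals. These libraries pooled 5 to 10 mice. The cells held 61443 and 55025 UMIs in all, too few for the comparison across genes. Ctla4 stood at 781 and 763 CPM in them and Ikzf2 at 1286 and 3090 CPM. Tnfrsf9 stood at 146 CPM in 6 TNF- cells and 2017 CPM in 9 TNF+ cells (111 UMIs in 8 cells). Il1rl1 stood at 700 CPM (506 to 943) and 854 CPM (628 to 1136), in 5 of 6 and 7 of 9 cells. Areg stood at 814 and 345 CPM.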
